A study of Mus musculus with 10 samples.

Results

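The MYC, MAX and MXD network is a set of basic helix-loop-helix leucine zipper transcription factors that bind DNA as dimers. It was described here through 10 genes chosen by name, namely Myc, Mycn, Max, Mxd1, Mxd3, Mxd4, Mxi1, Mnt, Mlx and Mga, out of 52550 genes counted. Members with at least 10 counts over the 10 libraries were taken as measured. Mycn held 1 count in total and was not measured, whereas Mxd3, the lowest of the other members, held 1999 counts, so that 9 of the 10 members were followed.

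The cells were bone marrow cells enriched for mouse hematopoietic stem and progenitor cells from C57BL/6 mice, transformed by retroviral MLL-AF9, the fusion oncogene of a form of acute myeloid leukemia. All of them also carried a construct inducible by doxycycline (DOX). MLL-AF9-i139 cells expressed the microRNA miR-139 with DOX, and MLL-AF9-ieGFP cells expressed eGFP instead. The paper describes tetR-KRAB, a repressor that DOX releases, for MLL-AF9-i139 cells and does not state it for MLL-AF9-ieGFP cells. Libraries came from 3 MLL-AF9-i139 clones, each without DOX and with DOX at 5 µg/mL, given for 48 h in clones 1 and 2 and for 72 h in clone 3. How long their untreated partners were cultured is not in the labels. The 4 MLL-AF9-ieGFP libraries came from 1 clone at 48 h and 72 h, without and with DOX, so that a difference between constructs and a difference between clones cannot be told apart, nor can clone 3 and the longer treatment.

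MYC heterodimerizes with MAX on E-box sequences and activates genes of ribosome biogenesis, nucleotide synthesis and cell cycle entry. The MXD proteins (MXD1, MXD3, MXD4 and MXI1) and MNT compete for MAX and for the same sites, and they recruit SIN3 and histone deacetylases to repress these genes. In the myeloid lineage, MXD1 is known as a gene of terminal differentiation, and MYC as a gene of proliferating progenitors that MLL-fusion leukemias depend on.

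The total count of a library lay between 35133308 and 47089725. Myeloid progenitor genes were abundant, with a summed level of 3570 to 4960 CPM (the count as a share of the library total, put on a common scale) in untreated MLL-AF9-i139 cells over 10 markers that included Mpo, Elane, Ctsg and Kit. Itgam, also on this list, held only 5 counts over the 6 MLL-AF9-i139 libraries. Of its exon bases, 99.1% lie in the body of Gm49368, so the low count was not read as absence of RNA. Lymphoid markers reached at most 1.42 CPM and erythroid and megakaryocyte markers at most 4.16 CPM in any library, with Hbb-bt at 0 in every group. The Mir139 row held 0 counts in each of the 10 libraries, so that it gave no check of the labels. A measured member held between 156 counts (Mxd3) and 17319 counts (Myc) in a library, so that counting error was small for all but Mxd3. Of the exon bases of Myc, Max, Mxd1, Mnt and Mga, 0% lie in other annotated genes, against 2.84% for Mxi1 and 4.43% for Mxd3.

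Both strands of the miR-139 hairpin, which lies on mouse chromosome 7 (GRCm38), are shown here because the construct supplies them and the members could be read for matches to them. Sequences are from RefSeq, on GRCm38.p6, and the seed (bases 2 to 8) is in capitals. miR-139-5p occupies chr7:101475382-101475403 and miR-139-3p chr7:101475418-101475439, both on the plus strand.
mmu-miR-139-5p: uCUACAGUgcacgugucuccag
mmu-miR-139-3p: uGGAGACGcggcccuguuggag

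The longest annotated 3′ UTR of each member (GENCODE M21, GRCm38) was searched on the transcribed strand for ACTGTAG, the complement of the miR-139-5p seed. Mxd1 held 2 matches, Mxi1 held 2 and Mnt held 1. The 3′ UTRs of Myc, Max, Mxd3, Mxd4, Mlx, Mga and Mycn held 0. Among all 14445 genes searched, 12.5% held at least 1 match, and the 3′ UTRs of Mxd1 (3829 bases) and Mxi1 (4074 bases) were longer than the median of 1090 bases. The sites of the 3 members with ACTGTAG are shown with their flanks, the match in capitals, because 2 of these genes are among those with the largest differences below.
Mxd1, chr6:86648834-86648840, minus strand: ctctgaccaaaACTGTAGcttttggggacc
Mxd1, chr6:86647669-86647675, minus strand: gtgcccagagcACTGTAGtctgcagcatgg
Mxi1, chr19:53374304-53374310, plus strand: aatacaactcgACTGTAGtatttccctgtg
Mxi1, chr19:53374617-53374623, plus strand: cagaggtaaggACTGTAGagaaaaaaaaag
Mnt, chr11:74845492-74845498, plus strand: agcgaccccagACTGTAGagatttttatgt

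For miR-139-3p, the match to the seed (CGTCTCC) was present 1 time in the 3′ UTR of Mxi1 and in no other member, against 3.74% of all genes searched. Matches to bases 2 to 7 followed by an A were searched too. For miR-139-5p (CTGTAGA), Mga held 2 and Mxi1 and Mnt held 1 each, against 15.2% of all genes with at least 1. Those of Mxi1 and Mnt overlap ACTGTAG sites shown above, so they are not further sites. For miR-139-3p (GTCTCCA), Mxd1, Mxd4, Mxi1, Mlx and Mga held 1 each, against 14% of all genes. That of Mxi1 overlaps its CGTCTCC match. A match in a 3′ UTR is a description of the letters only.

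In MLL-AF9-i139 cells, DOX went with more Mxd1, Mxi1 and Mxd4 RNA and less Myc RNA in each of the 3 clones, while the log2 fold changes of Max, Mlx, Mxd3, Mnt and Mga lay between -0.16 and 0.29. In bulk RNA, a change in the makeup of the culture and a change of RNA within each cell cannot be told apart. None of the 9 members passed an adjusted p of 0.05 in edgeR's quasi-likelihood test without a clone term, in which 12 of 19223 genes passed (0.0624%). At an unadjusted p under 0.05 there were 4, namely Mxd1, Mxi1, Mxd4 and Myc, where 20.6% of all genes were under it. With the clone as a block, which the labels allow because each clone was sequenced with and without DOX, these 4 members passed. Mxd1, Mxi1 and Mxd4 rose, where 7.05% of all genes were called higher, and Myc fell, where 5.33% were called lower. DESeq2 without the block called Mxd1, Mxi1 and Mxd4 higher (7.51% of genes tested) and did not call Myc (4.58% lower).

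Myc, the proto-oncogene at the centre of the network, is annotated at chr15:61985391-61990374 on the plus strand of GRCm38. Its normalized level was 316, 365 and 364 CPM in clones 1, 2 and 3 without DOX, and 215, 228 and 317 CPM with DOX. The treated clones 1 and 2 lay below every other library, whereas treated clone 3 stood at the level of untreated clone 1, so that the groups overlapped by this library. The log2 fold change was -0.45 ± 0.15 (SE, 3 clones against 3, edgeR adjusted p = 0.169), and -0.46 ± 0.10 with the clone block (adjusted p = 0.0359). Within clones the log2 difference was -0.56 in clone 1, -0.68 in clone 2 and -0.20 in clone 3. In MLL-AF9-ieGFP cells Myc stood at 380 and 381 CPM without DOX and at 377 and 378 CPM with DOX.

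Max, the partner that MYC and its antagonists share, lies at chr12:76937269-76962201. It measured 84.8, 88.8 and 81.0 CPM without DOX and 72.4, 72.8 and 80.5 CPM with DOX in clones 1, 2 and 3. The groups did not overlap, although clone 3 was almost level between its libraries. The log2 fold change was -0.16 ± 0.09 (edgeR adjusted p = 0.365), and Max was not called with the block either (adjusted p = 0.256). Groups that did not overlap were also found for 12% of all genes in the higher direction and for 12.8% in the lower direction, and the members among them were Mxi1 (higher), Max and Mga (lower).

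Mxd1, the antagonist best known from myeloid differentiation, lies at chr6:86647042-86669161. It measured 76.5, 69.0 and 67.8 CPM in the untreated clones 1, 2 and 3. With DOX it measured 180 and 183 CPM in clones 1 and 2 but 75.0 CPM in clone 3, which was within the untreated range. Mxd1 had a log2 fold change of 1.05 ± 0.30 (edgeR adjusted p = 0.128) and 0.95 ± 0.23 with the block (adjusted p = 0.0436). It had the largest difference of any member, and 2 of its 3 clones carried it, with log2 differences of 1.23, 1.41 and 0.15.

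Mxi1, also called MXD2, lies at chr19:53310518-53375810. Its untreated levels were 102, 96.9 and 111 CPM and its treated levels 184, 173 and 130 CPM in clones 1, 2 and 3. Every treated library exceeded every untreated one. For Mxi1 the fit gave a log2 fold change of 0.66 ± 0.14 (edgeR adjusted p = 0.099), and 0.65 ± 0.14 with the block (adjusted p = 0.0326).

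Mxd4 lies at chr5:34173883-34187720 on the minus strand. It measured 27.1, 31.5 and 22.6 CPM without DOX and 59.6, 59.8 and 27.9 CPM with DOX. The treated clone 3 lay inside the untreated range, and the treated clones 1 and 2 lay well above it. A log2 fold change of 0.87 ± 0.28 was fitted for Mxd4 (edgeR adjusted p = 0.152), and 0.81 ± 0.16 with the block (adjusted p = 0.0294). Of its exon bases, 11.8% lie in the body of Gm42846 on the other strand, and whether the counting used strand is not given in the sources used here.

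Mxd3, which is expressed mainly during S phase in other cells, lies at chr13:55325168-55329823. It was the lowest measured member, at 5.51, 3.56 and 3.98 CPM without DOX and 4.74, 4.83 and 6.25 CPM with DOX. These values overlapped, and the clones differed in direction. The log2 fold change was 0.29 ± 0.23 (edgeR adjusted p = 0.517).

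Mnt, the broadly expressed antagonist, lies at chr11:74830920-74845725. It measured 45.6, 48.7 and 66.7 CPM without DOX and 42.6, 50.7 and 58.2 CPM with DOX, so that clone 3 was the highest library of each group. Clone 2 was higher with DOX and clones 1 and 3 lower. Over the clones, Mnt differed by -0.08 ± 0.18 on the log2 scale (edgeR adjusted p = 0.845). With the block, 3 of the 5 antagonists were called higher, and Mxd3 and Mnt were not called (adjusted p = 0.349 and 0.662). Whether Mxd3 and Mnt differed from the other antagonists was not tested.

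Mlx, the partner through which MondoA and ChREBP join the network, lies at chr11:101087277-101092207. It measured 38.2, 42.8 and 36.7 CPM without DOX and 43.8, 49.4 and 37.3 CPM with DOX, and the log2 fold change was 0.16 ± 0.13 (edgeR adjusted p = 0.519). Of its exon bases, 19.3% are shared with Psmc3ip on the other strand. Mga, a large MAX partner that is also part of the repressive PRC1.6 complex, lies at chr2:119897228-119969581. It measured 260, 242 and 253 CPM without DOX and 242, 240 and 228 CPM with DOX. The treated libraries lay below the untreated ones in each clone, and the fold change was -0.08 ± 0.09 (edgeR adjusted p = 0.65).

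**Figure D1:**
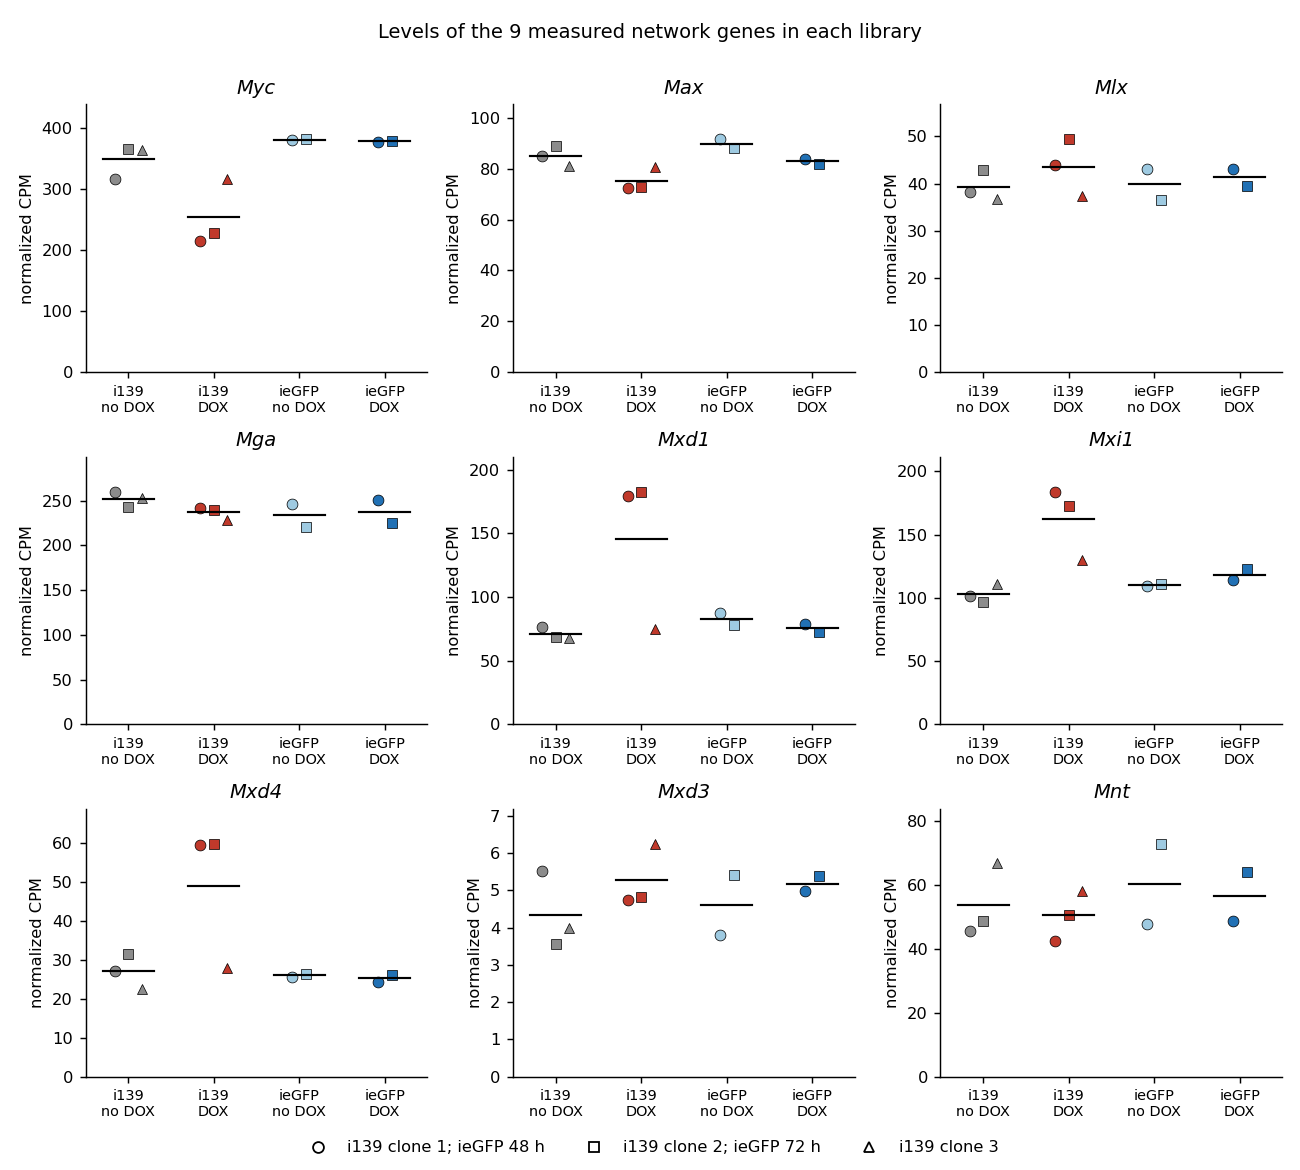
Each panel plots the normalized CPM of a measured member by library, on axes that start at 0, with a point per library (symbols mark i139 clones 1 to 3 and ieGFP 48 h or 72 h) and a bar at the group mean. In Mxd1 and Mxd4, i139 clones 1 and 2 with DOX stand apart from all other libraries, while clone 3 with DOX lies at 75.0 and 27.9 CPM, beside the untreated libraries.

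The size of these differences varied by clone. For the 4 members called with the block, the difference in clone 3 was between 0.11 and 0.33 times the mean difference of clones 1 and 2, both on the log2 scale, and the lowest of these ratios was that of Mxd1. Without clone 3, edgeR called all 4 without a block, with log2 fold changes of 1.34 ± 0.09 for Mxd1, 0.86 ± 0.09 for Mxi1, 1.05 ± 0.11 for Mxd4 and -0.60 ± 0.10 for Myc, where 11.6% of all genes were called higher and 10.1% lower. Max was not called in that fit (log2 fold change -0.24 ± 0.09, adjusted p = 0.0957). In blocked fits without clone 1 or clone 2, chosen after seeing the data, 0 and 1 of the 9 members passed, and the share of all genes called there was not counted.

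**Figure D2:**
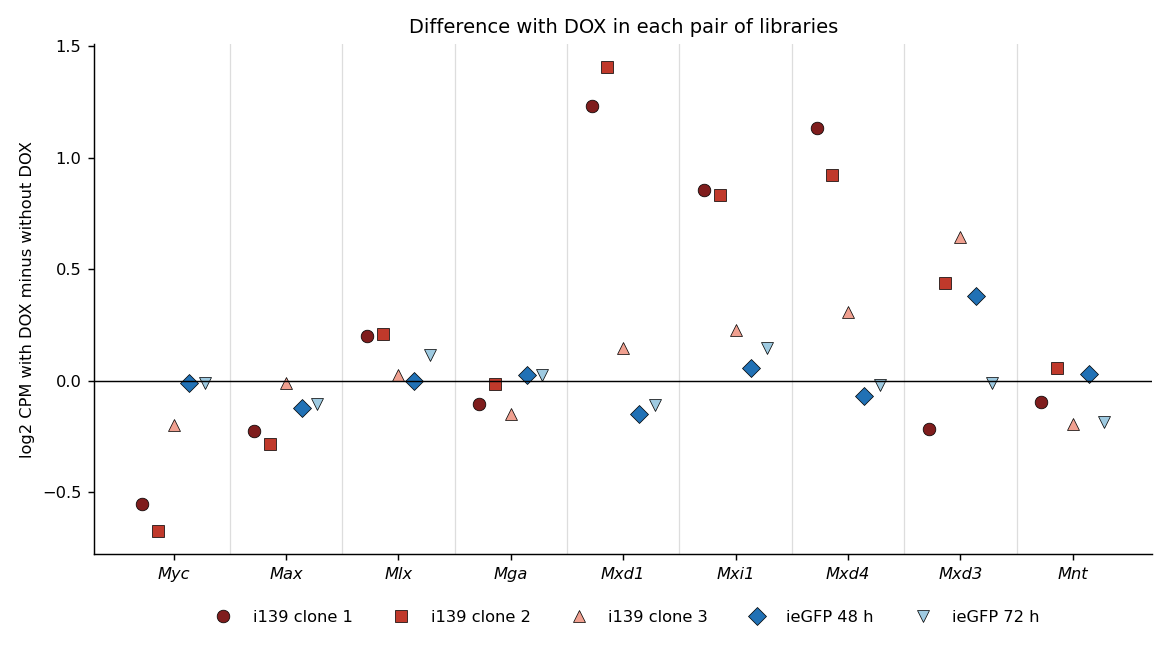
The vertical axis is log2 CPM with DOX minus log2 CPM without DOX in the same i139 clone, or in the ieGFP clone at the same time, for each measured member. Clones 1 and 2 lie near each other, at 0.83 or more, for Mxd1, Mxi1 and Mxd4, clone 3 lies at 0.15, 0.23 and 0.31 for these genes, and the ieGFP points lie within 0.15 of 0 for every member but Mxd3 and Mnt.

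In MLL-AF9-ieGFP cells, DOX against no DOX served as the control for the drug and for an inducible construct. No member was called, and none had an unadjusted p under 0.05 by edgeR or by DESeq2. No gene of 20269 was called by edgeR (0%), although 259 had an unadjusted p under 0.05, and DESeq2 called 1. The log2 fold change was -0.13 ± 0.32 for Mxd1, 0.10 ± 0.15 for Mxi1, -0.04 ± 0.30 for Mxd4 and -0.01 ± 0.16 for Myc. The error of Mxd1 and Mxd4 includes the spread of the MLL-AF9-i139 groups, which share the fit.

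The interaction of DOX with the construct asked whether the difference with DOX itself differed between the constructs. It called 0 of the 9 members, as against 1 gene in all (0.00493%). Mxd1, Mxi1 and Mxd4 had an unadjusted p under 0.05, as did 9.17% of all genes, and DESeq2 called 0 members. The estimates were 1.17 ± 0.41 for Mxd1, 0.90 ± 0.39 for Mxd4, 0.55 ± 0.19 for Mxi1 and -0.45 ± 0.21 for Myc (adjusted p = 0.527, 0.535, 0.527 and 0.559 by edgeR). With the block, adjusted p-values of these members lay between 0.106 and 0.16 and 0.187% of genes were called. Without clone 3, Mxd1, Mxi1 and Mxd4 were called higher, where 5.74% of genes were, and Myc lower, where 4.44% were.

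The cultures without DOX were also compared between MLL-AF9-i139 and MLL-AF9-ieGFP. This comparison called 0 members and 0.0444% of genes, and no member had an unadjusted p under 0.05 by edgeR or DESeq2. The log2 fold changes of MLL-AF9-i139 against MLL-AF9-ieGFP ran from -0.22 ± 0.29 for Mxd1 to 0.11 ± 0.09 for Mga.

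The levels were set against each other per kilobase of exon, since a longer transcript collects more reads. In untreated MLL-AF9-i139 cells, Myc had the highest level at 128 ± 10.2 CPM per kb (SD, n = 3 clones), followed by Max at 23.6 ± 1.09, Mlx at 19.6 ± 1.59, Mga at 16.4 ± 0.58, Mxi1 at 15.1 ± 1.04, Mnt at 11.6 ± 2.47, Mxd1 at 10.1 ± 0.67, Mxd4 at 3.19 ± 0.53 and Mxd3 at 1.84 ± 0.43. The ranges of Mga and Mxi1 overlapped, as did those of Mxi1 and Mnt and those of Mnt and Mxd1, whereas all other neighbours in this order were separated. By gene body length Myc was also first, at 69.9 CPM per kb, and Mxd3 last, but Mxi1 was then at rank 8, with 1.58 CPM per kb. The counted features are not given in the sources used here. With DOX, Mxd1 lay between 10.6 and 25.9 CPM per kb of exon in the 3 clones and Mxi1 between 19.0 and 27.0, against 20.1 to 22.4 for Max.

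Myc was also set against its antagonists within each library, as log2 CPM of Myc minus the mean log2 CPM of Mxd1, Mxd3, Mxd4, Mxi1 and Mnt. The level of this balance depends on gene length, but its difference between libraries does not. It was 3.17, 3.48 and 3.42 in the untreated clones 1, 2 and 3 and 2.03, 2.08 and 2.99 with DOX. The balance was lower with DOX in each clone, by 1.14, 1.41 and 0.43 on the log2 scale, a mean difference of -0.99 ± 0.51 (SD, n = 3 clones) that was not tested, because the members were chosen with results known. In MLL-AF9-ieGFP cells it differed by -0.06 at 48 h and 0.02 at 72 h. Against Mxd1 alone, the untreated clones showed a balance of 2.05, 2.40 and 2.42, and the treated clones 0.26, 0.32 and 2.08.

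**Figure D3:**
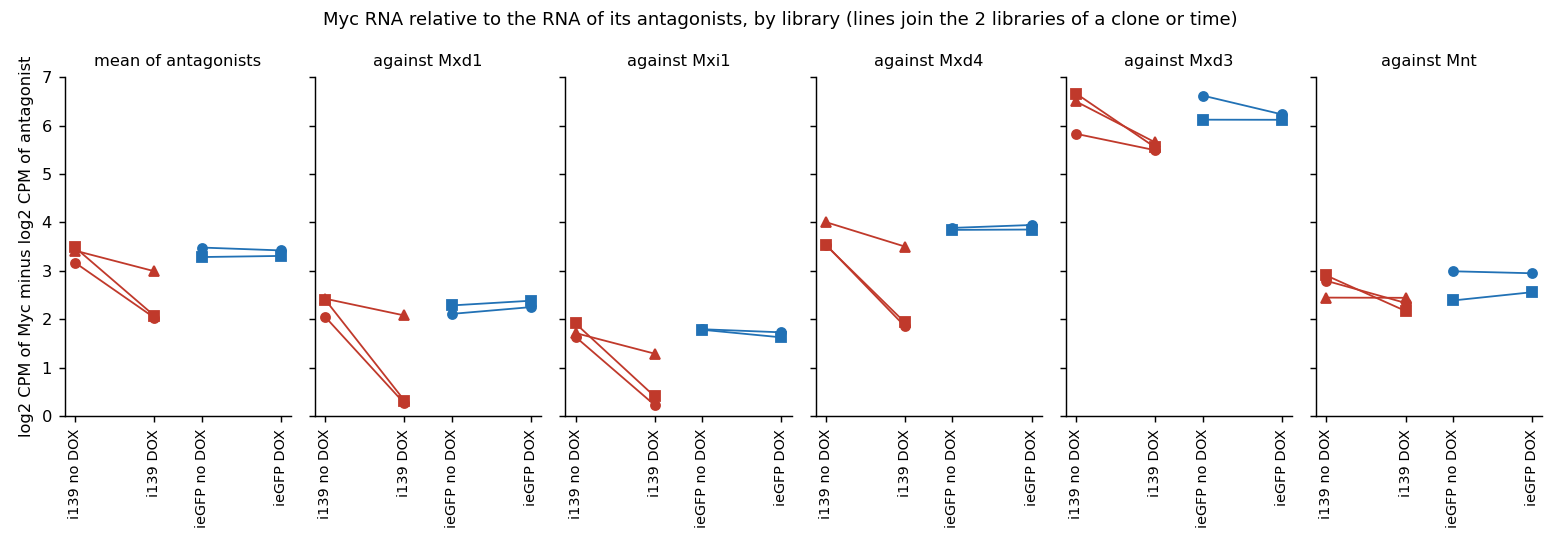
The vertical axis is log2 CPM of Myc minus log2 CPM of the antagonist named above each panel, or minus the mean over the 5 antagonists in the first panel, and each line joins the library without DOX to that with DOX of an i139 clone (red) or an ieGFP time (blue). In the Mxd1 panel the i139 lines for clones 1 and 2 end at 0.26 and 0.32, clone 3 (triangles) falls less, and the ieGFP lines are near level. The Mxd3 panel differs, with clone 3 going from 6.50 to 5.65, clone 1 from 5.83 to 5.49 and ieGFP at 48 h from 6.62 to 6.23.

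The gene with the level profile most like that of Myc across the 10 libraries, among 10661 genes with an average log2 CPM of at least 1, was Tdg (Pearson r = 0.999), followed by Pa2g4 and Ifrd2 (r = 0.996 for each). For Mxd1 these were Wbp1l (r = 0.990), Rprd2 (r = 0.988) and Gak (r = 0.987). The values rest largely on the treated libraries of clones 1 and 2, which stand apart from the other 8.

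Genes that MYC is known to activate were lower with DOX in MLL-AF9-i139 cells. This list of 25 was chosen with earlier results of these data known, so its direction is not independent evidence. With the block, 20 of 25 fell and 0 rose, where 5.33% of all genes were called lower, and the median log2 fold change was -0.57 against 0.01 over all genes with a symbol. Without the block 0 passed by edgeR, with a median of -0.55 and 22 of 25 at an unadjusted p under 0.05 (20.6% of all genes). DESeq2 called 12 lower, where 4.58% of genes tested were. The largest falls with the block were those of Cad, the enzyme that begins pyrimidine synthesis (-0.96 ± 0.17, adjusted p = 0.0257), Hspd1, a mitochondrial chaperonin (-0.95 ± 0.14, adjusted p = 0.0219), Pus7, a pseudouridine synthase (-0.83 ± 0.18, adjusted p = 0.0351), and Srm, spermidine synthase (-0.77 ± 0.14, adjusted p = 0.0281). Cad measured 394 ± 26.3 CPM without DOX and 210 ± 82.5 CPM with DOX (SD, n = 3 clones). By clone, the median difference over the list was -0.76 in clone 1, -0.82 in clone 2 and -0.25 in clone 3. Lower in these clones were 25, 24 and 24 of the 25 genes, beside 9822, 9474 and 9128 of all 19223 genes. In MLL-AF9-ieGFP cells the median was -0.04 at 48 h and -0.02 at 72 h. There 20 and 17 of the 25 genes were lower, beside 9781 and 9080 of all 19223 genes. The interaction of DOX with the construct called 0 of the 25 by edgeR and by DESeq2, with a median of -0.47 and 10 at an unadjusted p under 0.05 by edgeR (9.17% of all genes). Without clone 3 the edgeR interaction called 19 lower, where 4.44% of all genes were.

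Of 8 genes that MYC represses, 7 were measured, and with the block 2 rose, where 7.05% of all genes were called higher. Without the block edgeR called 0, with 3 at an unadjusted p under 0.05 (20.6% of all genes), and DESeq2 called 3 higher (7.51% of genes tested). Those that rose with the block were Cdkn1a, which encodes the cell cycle inhibitor p21 (1.52 ± 0.27, adjusted p = 0.0271), and Cdkn1b, which encodes p27 (0.65 ± 0.14, adjusted p = 0.0355). Cdkn1a measured 46.2 ± 5.23 CPM without DOX and 144 ± 70.7 CPM with DOX. The others were not called with the block, although Ndrg1 (0.91 ± 0.28, adjusted p = 0.0775) was called higher by DESeq2 (adjusted p = 0.0184), and Cdkn2b, Cdkn2c and Gadd45a had log2 fold changes below 0 (-0.0046, -0.29 and -0.18). The median over the 7 was 0.17.

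**Figure D4:**
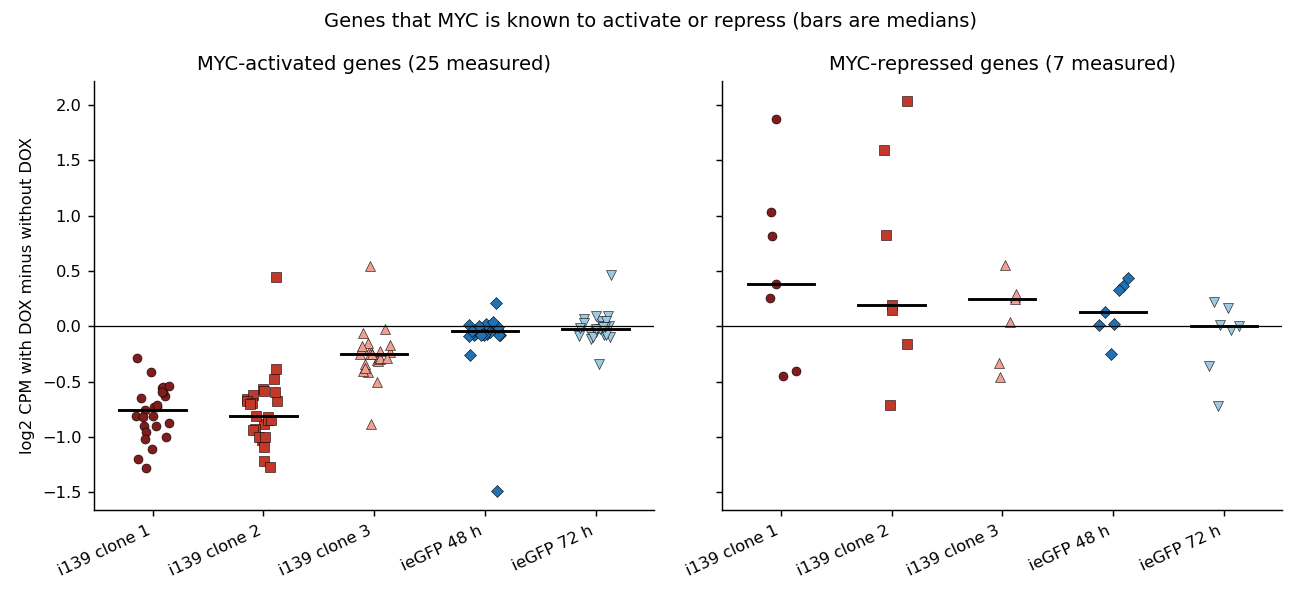
Each point is a gene, and the vertical axis is log2 CPM with DOX minus log2 CPM without DOX for each i139 clone and each ieGFP time, with a bar at the median. The medians of the 25 MYC-activated genes are -0.76, -0.82 and -0.25 in i139 clones 1, 2 and 3 and -0.04 and -0.02 in the ieGFP clone. The point of Nme1 (-1.49 at 48 h in ieGFP) comes from a gene with 43 counts over the 6 i139 libraries. Since 93.2% of the exon bases of Nme1 lie in the body of Gm20390, its low count was not read as absence of RNA.

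The lists of network cofactors had smaller median log2 fold changes than the MYC-activated genes, a difference that was not tested. With the block, 5.33% of all genes were called lower. Of 10 MYC coactivators and partners, 2 fell, the AAA+ ATPases Ruvbl1 (-0.61 ± 0.10, adjusted p = 0.0254) and Ruvbl2 (-0.41 ± 0.09, adjusted p = 0.0379), while Ep400 had a log2 fold change of -0.05. Of the 9 genes of the SIN3-HDAC corepressor that MXD proteins recruit, 1 fell, Sap30 (-0.64 ± 0.14, adjusted p = 0.0368), and Sin3a, Hdac1 and Hdac2 were not called. Of 9 MGA-PRC1.6 subunits, Cbx3 (-0.49 ± 0.12, adjusted p = 0.0482) and E2f6 (-0.46 ± 0.10, adjusted p = 0.0361) fell. The further bHLH factors Mlxip and Mlxipl were not called, Mycl was at 2 counts in the 6 libraries, and the MondoA target Arrdc4 was not called. The medians of these lists were -0.10 for coactivators, -0.12 for SIN3-HDAC and -0.30 for MGA-PRC1.6.

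Of 10 genes of MYC protein turnover, 8 were measured and 4 fell with the block (5.33% of all genes), among them the deubiquitinase Usp36 (-0.64 ± 0.12, adjusted p = 0.0278), the F-box protein Skp2 (-0.44 ± 0.10, adjusted p = 0.0413) and the phosphatase inhibitor Cip2a (-0.35 ± 0.09, adjusted p = 0.0479). No gene of these 4 lists of cofactors and turnover rose with the block, and edgeR called none without it, against 10 of 36 at an unadjusted p under 0.05 (20.6% of all genes) and 5 called lower by DESeq2 (4.58% of genes tested). Fbxw7, the ubiquitin ligase subunit for MYC, Stub1 and the MondoA target Txnip were at 0 counts. All exon bases of these 3 genes lie within bodies of other annotated genes, so the 0 was not read as absence of RNA.

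Markers of myeloid cells were followed with DOX in MLL-AF9-i139 cells too, and edgeR without the block called 0. At an unadjusted p under 0.05 were 6 of 9 progenitor, 2 of 7 neutrophil and 3 of 6 macrophage markers, beside 20.6% of all genes. DESeq2 called 5, 2 and 2 of these lists higher, beside 7.51% of genes tested. With the block, 4 of 9 measured progenitor markers rose (Mpo, Fcgr3, Ctsg and Spi1, log2 fold changes of 1.41, 1.22, 0.65 and 0.62), as did 2 of 7 mature neutrophil markers (Cxcr2 at 4.02 and Ngp at 1.35) and 1 of 6 macrophage markers (Csf1r at 1.26), where 7.05% of all genes were called higher. Not called were Ly6c2 and Elane among the progenitor markers (-0.32 and -0.06) and Mmp8 and S100a9 among the neutrophil markers (-0.72 and -0.01), for example. By clone, the median log2 difference of the progenitor list was 0.70, 0.71 and 0.17, that of the neutrophil list 0.02, 0.71 and 0.62, and that of the macrophage list 1.17, 1.01 and 0.11 in clones 1, 2 and 3. The summed level of the progenitor list was 5410 to 7380 CPM with DOX. That of the neutrophil list was 128 to 230 CPM without DOX and 194 to 373 CPM with DOX in MLL-AF9-i139 cells, and 282 to 384 CPM in MLL-AF9-ieGFP cells. That of the macrophage list was 10.1 to 16.1 CPM without DOX and 12.1 to 37.5 CPM with DOX, with C1qa at 0 in every group. The part of these markers in the members' differences was not tested.

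An E-box of the sequence CACGTG, which reads the same on both strands, was searched in the window from 250 bases before to 50 bases after each annotated start (RefSeq, GRCm38.p6), where 7.15% of 32851 promoters hold it. Max, Mlx, Mnt and Mxd4 each held 1, and Mga, Mxd1, Mxd3, Mxi1 (3 promoters) and Mycn held 0 in their windows. The promoter of Myc was not analysed here. Of the antagonists that rose with the block, Mxd4 is therefore the only member with this motif in these windows, and its promoter, on the minus strand at chr5:34187661-34187960, is shown with the E-box in capitals.
Mxd4 promoter: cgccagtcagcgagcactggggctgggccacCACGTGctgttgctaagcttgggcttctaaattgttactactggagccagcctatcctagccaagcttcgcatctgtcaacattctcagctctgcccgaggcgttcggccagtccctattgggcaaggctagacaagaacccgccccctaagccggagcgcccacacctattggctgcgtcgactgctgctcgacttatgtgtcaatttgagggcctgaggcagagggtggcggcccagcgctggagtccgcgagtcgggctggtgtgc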

How the data were processed

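Read counts per gene of 10 libraries were used as deposited. Total RNA was depleted of ribosomal RNA and sequenced, and per the labels and the paper the authors mapped reads to GRCm38 with STAR 2.5.3e, counted them by featureCounts 1.6.0 against GENCODE genes, and deposited the raw counts for 52550 genes unnormalized. The settings for strand, introns and overlaps are not given in the sources used here. The GENCODE release that the paper names for counting is earlier than M21, which gave the exon lengths, gene bodies and overlaps used here. The authors used DESeq2 1.22.2. A further 14 columns belong to other samples and were not used.

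Counts were normalized here by TMM, and genes reaching 10 counts over the libraries of a fit were tested by edgeR 4.0.16 (R 4.3.3) with quasi-likelihood F tests and Benjamini-Hochberg adjustment, at an adjusted p of 0.05. The 6 MLL-AF9-i139 libraries were fitted alone, and the other comparisons in 1 fit of 4 groups. Log2 CPM had a prior count of 2. The clone numbers pair libraries, since a number marks the same cell line: deviations from group means correlated by 0.288 to 0.414 within a clone (19223 genes). Alternatives were the clone block, DESeq2 1.42.0, RLE size factors, other filters, a joint fit of the 10 libraries, and leaving out a clone or time. The scripts were tested on simulated data, without clone effects and with a clone spread set by hand. With that spread, edgeR recovered 0% of changes of 1 on the log2 scale without the block and 100% with it. In independent libraries, false calls without the block were 6.3% for edgeR and 15.5% for DESeq2. The members and the 13 other lists were chosen with earlier results of these data known. Named genes were all members, at most 4 called genes with the largest change a list, and the 3 most correlated with Myc and Mxd1; other list genes and the markers at 0 were named after their values were seen. Python 3.11.15 was used for the tables. Genes were named by identifier, and 52403 of 52550 had a symbol. Values of 2 list genes are not reported here.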

Additional observations from a re-analysis of the deposited data

Results flagged for a closer look

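For Mxd1, Mxd4 and Mga, the difference with DOX had one sign in all 3 MLL-AF9-i139 clones and the other sign at both MLL-AF9-ieGFP times, although no member was called in MLL-AF9-ieGFP and some of these differences were near 0. For Mxd1 the difference of the DOX effect between constructs was 1.17 on the log2 scale (edgeR adjusted p = 0.527), with clones higher by 0.15 to 1.41 and the ieGFP times at -0.15 and -0.11. For Mxd4 it was 0.90 (adjusted p = 0.535), with the ieGFP times at -0.07 and -0.02. For Mga it was -0.11 (adjusted p = 0.785), with clones at -0.10, -0.02 and -0.15 and the ieGFP times at 0.02 and 0.03. The tests of these differences did not pass the threshold.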

How the results depend on the processing

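The number of members called with DOX in MLL-AF9-i139 was 0 without a clone term, and it moved to 2 in the fit of all 10 libraries, 3 with DESeq2, 1 with a filter of at least 1 count in total and 4 with the replicate block. Leaving out a clone gave 0 to 4 members without the block and 0 to 6 with it, the latter chosen after seeing the data. The highest count each time came without clone 3, and with the block 0 members passed without clone 1 and 1, Mxd4, without clone 2. For the joint fit, the filter of at least 1 count and the blocked fits without a clone, the share of all genes called was not counted. The interaction gave 0 to 4 over the replicates left out, with 4 without clone 3. RLE size factors and filterByExpr called 0 members in every comparison. The block changed no call of members in the interaction or in MLL-AF9-ieGFP. The causes were not tested. Members with small estimates that were not called changed sign as a clone or time was left out. The log2 values then ranged from -0.1463 to 0.0023 for Mnt with DOX in MLL-AF9-i139, from -0.0253 to 0.3872 for Mxd3 and from -0.1985 to 0.0366 for Mnt with DOX in MLL-AF9-ieGFP. In the interaction they ranged from -0.1113 to 0.0006 for Max, from -0.1115 to 0.3941 for Mxd3 and from -0.1254 to 0.1254 for Mnt, which was at -0.0028 with the replicate block. Between untreated constructs they ranged from -0.3542 to 0.2003 for Mxd3, from -0.0682 to 0.1472 for Mxd4, from -0.4758 to 0.1789 for Mnt and from -0.1304 to 0.0641 for Mlx.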

Other observations

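Mnt was higher in the libraries labelled 72 h than in those labelled 48 h, a pattern chosen after its values were seen. The libraries labelled 48 h measured 42.6 and 50.7 CPM in treated MLL-AF9-i139 clones 1 and 2, and 47.7 and 48.8 CPM in MLL-AF9-ieGFP without and with DOX. Those labelled 72 h measured 58.2 CPM in treated MLL-AF9-i139 clone 3, and 72.8 and 64.1 CPM in MLL-AF9-ieGFP without and with DOX. Every 72 h library thus lay above every 48 h library, and the share of all genes that separate in this way was not counted. The untreated clone 3, whose time the labels do not give, stood at 66.7 CPM. The difference was not tested, and in MLL-AF9-i139 the time cannot be told apart from the clone.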
